A study of Mus musculus and Homo sapiens with 23 samples.

Results

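The genes described here are 10 mouse effectors of antiviral defence: Rsad2 (viperin), its neighbour Cmpk2, the GTPase genes Mx1 and Mx2, the tetherin gene Bst2, Samhd1, the membrane protein genes Ifitm1, Ifitm2 and Ifitm3, and the deaminase gene Apobec3. They were listed by name, with earlier results of these data known, and all 10 were found among 21591 genes, on 13 of the 28246 transcript rows. RNA was measured in BV2, a mouse microglia line that was immortalised with a retrovirus carrying oncogenes, in 1 library of unstimulated cells and 1 library of cells stimulated with lipopolysaccharide (LPS), a component of the outer membrane of Gram-negative bacteria, for 3 h. Both libraries came from the same line, were made from total RNA with a strand-specific kit and carry no other treatment in their labels, and the labels give no dose or source of the LPS. The other 21 of the 23 samples of the series profile chromatin, mostly the histone mark H2BK20ac and related marks, in BV2 cells and other cells, and were not analysed here. With 1 library per group there is no replicate check and no test: every difference compares these 2 libraries. Of 10 measured macrophage and microglia markers, 9 reached an FPKM (fragments scaled to transcript length and to library size) of 1 in either library, among them Tyrobp (4128 and 3064), Spi1 (217 and 707) and Csf1r (58.7 and 36.3), whereas the microglial markers Tmem119 and P2ry12 were at 2.16 and 1.19 FPKM unstimulated and Cx3cr1 was at 0.142. None of the markers listed for neurons, astrocytes, oligodendrocytes, fibroblasts with endothelium, or lymphocytes reached 1 FPKM, and of those for plasmacytoid dendritic cells Siglech was at 0.0208 and 0 while Cox6a2 was at 87.8 and 142. Read from the deposited intervals, the fragments behind the tables came to 13800000 for the unstimulated cells and 16930000 for the stimulated cells.

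As background, LPS signals through Tlr4 and the adaptor Ticam1 to the kinases Tbk1 and Ikbke and the factor Irf3, which switches on the interferon beta gene. Secreted interferon acts back on the cells through Ifnar1 and Ifnar2, and a complex that holds Stat2 and Irf9 then binds interferon-stimulated response elements in the promoters of effector genes. The proteins these genes encode act at separate steps of infection: membrane fusion, genome synthesis, reverse transcription and release of new particles.

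After LPS, 7 of the 10 genes were higher by the size rule used throughout, a change of at least 1 in log2(FPKM + 1), and 0 were lower. By the same rule 8.54% of all 10033 counted genes were higher and 12.4% lower, where a counted gene reached 1 FPKM in at least 1 of the libraries. The changes ran from 0.38 for Mx2 to 8.85 for Rsad2, with a median of 3.08 over all 10 genes, against -0.24 over all counted genes. Of the 10 genes, 9 passed the filter. Mx2 was under it on its matched row and is taken up below, and Ifitm1 and Ifitm2 were within the rule. All 10 genes had a higher FPKM in the LPS library with 95% intervals that did not overlap, Ifitm1 only narrowly (up to 1.22 and from 1.23). This was so for 25.1% of counted genes, which leave out Mx2. The intervals are as deposited, or combined where a gene has more than 1 row. Because adding 1 shrinks the change of weakly expressed genes, ratios of plain FPKM are given as well where more than 3 fragments support both values.

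**Figure D1:**
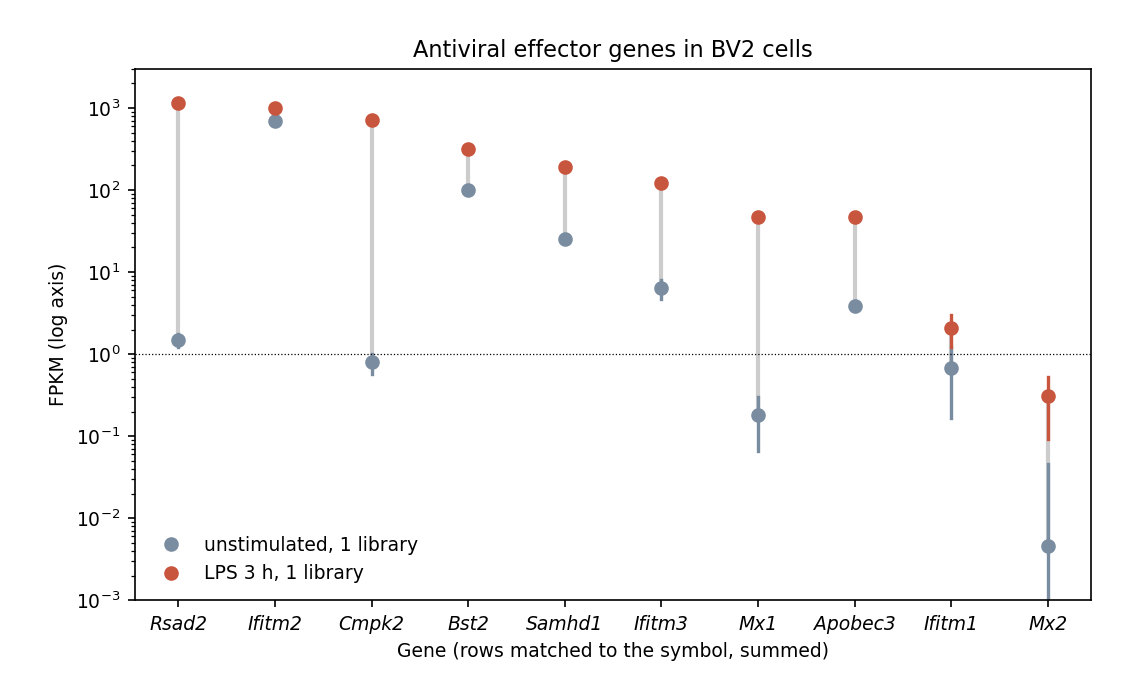
FPKM of each gene on a log axis in the unstimulated library (grey) and the LPS library (red), ordered by the LPS level. Vertical lines at the points are the 95% intervals, as deposited or combined where a gene has more than 1 row. Those reaching 0 are drawn to the axis end. Grey bars join the 2 libraries, and the dotted line is 1 FPKM. Ifitm2 starts at 703 and ends at 1007 FPKM, while Rsad2 and Cmpk2 start near 1 and end at 1151 and 715. Mx1 and Mx2 are drawn on their matched rows only.

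Rsad2 and Cmpk2, which make and act on nucleotides, had the largest rises of the group. Rsad2 encodes viperin, a radical SAM enzyme that turns CTP into a chain terminator of viral RNA synthesis, and lies on mm9 chromosome 12, 27127608 to 27141317 (NM_021384). Its FPKM was 1.50 (1.22 to 1.78) unstimulated and 1151 (1144 to 1159) after LPS, resting on 118 and 95299 fragments. This is a ratio of 768 (641 to 920). Cmpk2 encodes a mitochondrial nucleoside monophosphate kinase that can supply the substrate of viperin, and lies at 27154080 to 27164702 on the same chromosome (NM_020557), 12.8 kb from Rsad2. It was at 0.793 (0.573 to 1.01) and 715 (709 to 722), on 52 and 49258 fragments, which gives a ratio of 902 (687 to 1184). Their changes of 8.85 and 8.64 ranked 4 and 5 among the counted genes. The 2 genes kept nearly the same proportion to each other: Rsad2 stood at 1.89 times Cmpk2 (1.37 to 2.62) in the unstimulated library and at 1.61 times (1.59 to 1.63) in the LPS library, and the intervals of these ratios overlapped.

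The bases before the annotated start of both genes are shown because the genes moved together and only Rsad2 holds the interferon response motif in this window. They are RefSeq reference sequence of GRCm38.p6, 250 bases 5′ to 3′, chr12:26456453-26456702 on the minus strand for Rsad2 and chr12:26468965-26469214 on the plus strand for Cmpk2. Capitals mark matches to the interferon-stimulated response element GAAANNGAAA or to the shorter core AANNGAAA, which every such element contains, on either strand.
Rsad2: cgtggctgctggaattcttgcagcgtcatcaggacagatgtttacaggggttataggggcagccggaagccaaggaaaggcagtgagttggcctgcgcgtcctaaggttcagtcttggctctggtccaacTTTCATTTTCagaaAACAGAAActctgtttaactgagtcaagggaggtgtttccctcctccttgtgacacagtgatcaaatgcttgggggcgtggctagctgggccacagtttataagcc
Cmpk2: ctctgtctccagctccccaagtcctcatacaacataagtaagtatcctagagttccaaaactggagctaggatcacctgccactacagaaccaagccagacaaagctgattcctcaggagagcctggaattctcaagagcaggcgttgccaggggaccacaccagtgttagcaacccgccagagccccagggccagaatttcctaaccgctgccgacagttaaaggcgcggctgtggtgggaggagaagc
Rsad2 holds 1 match to GAAANNGAAA, from base -120 to base -111 before the start on the opposite strand, and a further core at -106 to -99. Cmpk2 holds 0 matches to either, which says only that these letters are not in this window.

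Samhd1, a triphosphohydrolase that breaks down deoxynucleotides and so starves reverse transcription, rose from 25.5 to 194 FPKM over both of its transcript rows, and the ratio was 7.60 (7.15 to 8.08). Unlike Rsad2 it was well expressed before stimulation. It lies on mm9 chromosome 2, 156923265 to 156960958, and its 2 transcript rows did not move alike. The main row (NM_018851) was at 22.0 (20.8 to 23.1) and 185 (182 to 188) FPKM, so the ratio was 8.44 (8.01 to 8.89). The minor row (NM_001139520) was at 3.51 (2.46 to 4.56) and 8.30 (7.45 to 9.15), with a ratio of 2.37 (1.74 to 3.23). The minor row thus held 13.8% of the gene's FPKM before stimulation and 4.28% after it. The main row was 6.26 times the minor (4.65 to 8.43) before and 22.3 times (20.2 to 24.7) after LPS, intervals that do not overlap. The rows span the same locus, and their split is an estimate by Cufflinks from the fragments that tell them apart.

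The genes of deoxynucleotide supply, the pool that Samhd1 drains, were described from a list of 16. All 16 were counted, 2 were higher and 7 lower, beside 8.54% higher and 12.4% lower over all counted genes. The median change was -0.84 beside -0.24 over all counted genes. Among the lower were the ribonucleotide reductase subunit genes Rrm1 (30.9 to 12.2 FPKM) and Rrm2 (16.6 to 4.69). The weakly expressed subunit gene Rrm2b (1.91 to 0.785) was within the rule. Its ratio of plain FPKM, 0.410 (0.315 to 0.535), was nonetheless near that of Rrm1, 0.395 (0.368 to 0.424). Also lower were the thymidine kinase gene Tk1 (18.8 to 3.72), Dut, which removes dUTP (36.6 to 15.6), the dCMP deaminase gene Dctd (25.7 to 10.04) and the thymidylate kinase gene Dtymk (192 to 91.4). Higher were 2 salvage genes: Pnp, a purine nucleoside phosphorylase (12.7 to 162), and Dck, the deoxycytidine kinase (4.31 to 12.8). Cmpk1, the cytosolic kinase of the same substrates as Cmpk2, was at 35.6 (33.6 to 37.5) and 31.03 (29.2 to 32.8) FPKM, a change of -0.19. Dck did not pass with a pseudocount of 5 (0.94), nor Dtymk after median scaling (-0.99). The list had 8 lower with a pseudocount of 0.1 and 10 lower with TPM.

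The Mx genes encode dynamin-like GTPases that form rings around viral nucleoproteins, and common laboratory strains of mice are known to carry defective alleles of them. In the RefSeq table of the C57BL/6J assembly both are listed as transcribed pseudogenes. They lie 73.2 kb apart on mm9 chromosome 16, Mx1 at 97668642 to 97684513 and Mx2 at 97757688 to 97782508. Each symbol matched 1 row, a non-coding accession (NR_003520 and NR_003508), and each locus held another row of almost the same ends, a protein-coding accession (NM_010846 and NM_013606) that the table of names does not contain. These 2 rows are given with the loci, and their addition was chosen after the values were seen.

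The matched row of Mx1 rose from 0.183 (0.0659 to 0.299) FPKM, on 10 fragments, to 46.6 (44.5 to 48.7), on 1951, and the ratio was 255 (136 to 478). The unmatched row at that locus was listed at 1.31e-05 (0 to 0.0352) unstimulated and at 29.8 (27.7 to 31.8) after LPS, when it held 39.0% of the FPKM at the locus. The locus as a whole went from 0.183 to 76.3 (73.4 to 79.3). For Mx1 both rows were thus high only in the LPS library. Fragments at the Mx loci are read from intervals that also cover assignment between the rows, so they are approximate.

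For Mx2 the choice of row decides the result. The matched row was at 0.00455 (0 to 0.0456) and 0.309 (0.0918 to 0.527) FPKM, on 0 and 8 fragments, a change of 0.38 under the filter of 1 FPKM. The unmatched row was at 0.0366 (0 to 0.0948) and 27.3 (25.8 to 28.7), on 2 and 1348 fragments, and held 98.9% of the FPKM at the locus after LPS. With it the Mx2 locus went from 0.0411 to 27.6 (26.1 to 29.1) FPKM, a change of 4.78, and no ratio is given because 2 fragments support the unstimulated value. On that reading 8 of the 10 genes were higher, and the Mx1 change became 6.03.

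**Figure D2:**
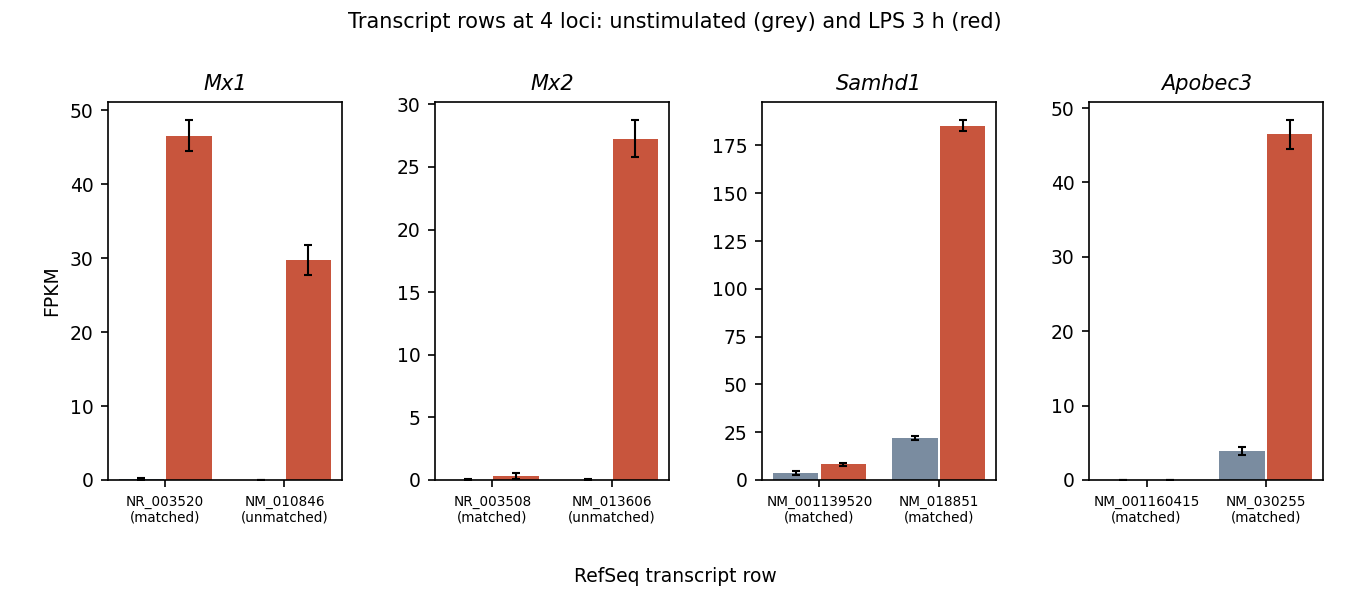
FPKM of each transcript row at the Mx1, Mx2, Samhd1 and Apobec3 loci in the unstimulated library (grey) and the LPS library (red), with the deposited 95% intervals as error bars; each panel has its own axis from 0, and rows are marked as matched or unmatched to the gene symbol. At Mx2 the LPS signal stands on the unmatched row (27.3 against 0.309), and at Apobec3 on 1 of the 2 rows.

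Bst2 and the Ifitm genes encode membrane proteins, and most of the signal of the group in unstimulated cells came from them. Bst2 encodes tetherin, which holds budding virions on the cell surface, and lies on mm9 chromosome 8, 74058161 to 74061336 (NM_198095). It rose from 100.0 (94.3 to 106) to 317 (307 to 327) FPKM, resting on 1235 and 4112 fragments, with a ratio of 3.17 (2.97 to 3.38). Its change of 1.65 was the smallest of the 7 past the rule, and the LPS level was nonetheless the 4th highest of the group.

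The Ifitm genes encode small proteins that hinder the fusion of viral and cellular membranes, and they form a cluster on mm9 chromosome 7 in the order Ifitm5, Ifitm2, Ifitm1, Ifitm3, Ifitm6 over 67.9 kb. They differed in level and in change. Ifitm2 (148140738 to 148141860, NM_030694) was the most abundant of the 10 antiviral genes in unstimulated cells, at 703 (685 to 720) FPKM, rank 120 of all genes, and was at 1007 (987 to 1027) in the LPS library. This is a ratio of 1.43 (1.39 to 1.48) and a change of 0.52, within the rule. The change was 0.27 with TPM and 0.10 after quantile normalisation, so its size depends on the scaling. Ifitm3 (148195489 to 148196643, NM_025378) rose from 6.36 (4.74 to 7.97) to 123 (116 to 130), and the ratio was 19.4 (15.0 to 25.03). Ifitm2 was 110 times Ifitm3 (86.1 to 142) before and 8.17 times (7.70 to 8.66) after LPS, so their levels came closer without changing order.

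Ifitm1 (148153328 to 148155726) was low in both libraries, at 0.675 (0.165 to 1.22) and 2.11 (1.23 to 3.01) FPKM. These values rest on 7 and 23 fragments, and nearly all of them on the row NM_026820. The ratio of plain FPKM was 3.13 (1.28 to 7.62), near the 3.17 of Bst2 but with a much wider interval. The change of 0.89 was short of the rule, but with 0.1 as the pseudocount it passed (1.51), as it did after quantile normalisation (1.19). Of the relatives in the cluster, Ifitm6 was at 8.10 (6.01 to 10.2) and 7.59 (5.61 to 9.56) with overlapping intervals, and Ifitm5, known from bone, was at 0.180 and 0.257 with intervals from 0. Ifitm3 stood level with its neighbour Ifitm6 in unstimulated cells, at 0.784 times its FPKM (0.550 to 1.12), and at 16.3 times (12.5 to 21.1) after LPS. Ifitm genes are close copies of each other, and the fragments of Ifitm1, Ifitm2 and Ifitm3 could in part be assigned to either, so their separate values are less certain than those of single genes.

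**Figure D3:**
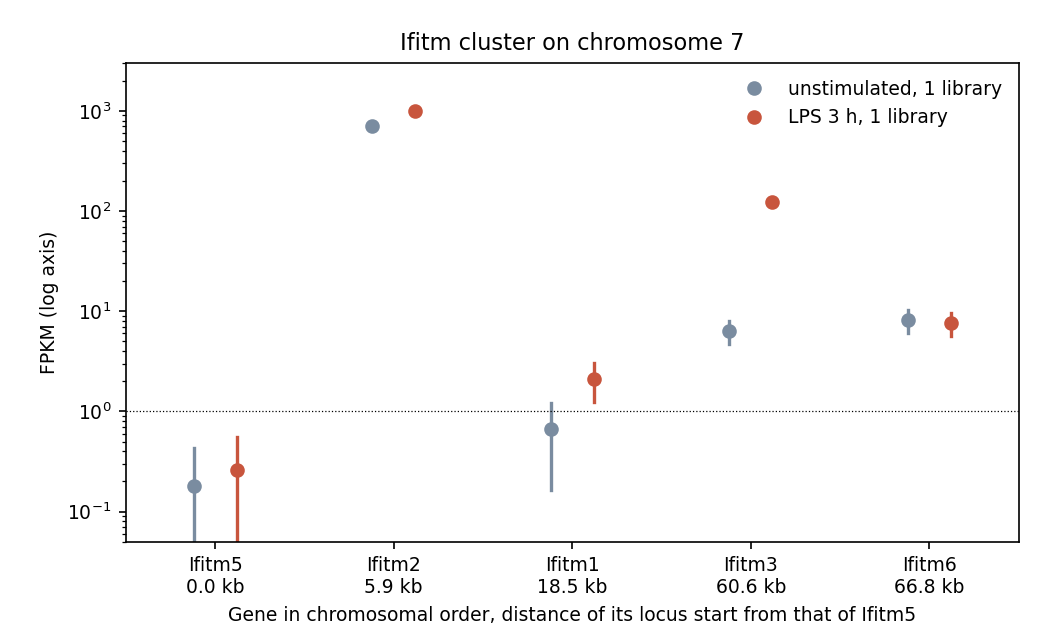
FPKM on a log axis of the 5 genes of the Ifitm cluster in chromosomal order, with the distance of each locus start from that of Ifitm5. The unstimulated library is grey and the LPS library red. Vertical lines are the 95% intervals, as deposited or, for Ifitm1, combined over its rows, and those reaching 0 are drawn to the axis end. Ifitm3 moves from 6.36 to 123 while Ifitm2 (703 and 1007) and Ifitm6 (8.10 and 7.59) stay within the size rule.

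Apobec3 encodes a cytidine deaminase that enters retroviral particles and edits their DNA, and lies on mm9 chromosome 15, 79722838 to 79738859. It rose from 3.91 (3.32 to 4.49) to 46.5 (44.5 to 48.4) FPKM, and the ratio was 11.9 (10.2 to 13.8). All but a trace stood on the row NM_030255, with 179 and 2311 fragments, and the other row (NM_001160415) was listed at 6.19e-06 and 6.24e-06. The first 731 bases of the locus overlap the row of D730005E14Rik, which went from 0.0803 (0.00948 to 0.151) to 0.522 (0.359 to 0.685) FPKM. Whether the counting used strand is not stated, so part of that signal may be shared.

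Of the antiviral genes, 8 have a promoter window in the RefSeq table, with 9 windows in all, and 5 of the 9 windows hold an interferon response motif: those of Rsad2, Bst2, Ifitm2 and Ifitm3 and the first of the pair of Apobec3. The second Apobec3 window and those of Cmpk2, Samhd1 and Ifitm1 hold 0 matches to GAAANNGAAA, and Mx1 and Mx2 have no window there. The motif, searched on both strands, is in 3.44% of the 32851 windows of all genes, which run from 250 bases before to 50 after each start, and the core AANNGAAA is in 23.9%. The 3 sites of Ifitm2, Ifitm3 and Apobec3 are shown because they let the elements of strongly and weakly changing genes be compared; each is 30 bases of GRCm38.p6, 5′ to 3′ on the strand of the gene, with matches to either motif in capitals.
Ifitm2, chr7:140955988-140956017: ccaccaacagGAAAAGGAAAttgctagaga
Ifitm3, chr7:141010715-141010744: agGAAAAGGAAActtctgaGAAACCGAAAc
Apobec3, chr15:79892258-79892287: catcagttagTTTCCCTTTCTCTTtgcgat
Ifitm2, with a change of 0.52, and Ifitm3, with a change of 4.08, share the same element, GAAAAGGAAA, at -46 to -37 and at 3 to 12 after the start, and Ifitm3 has another, GAAACCGAAA, at 20 to 29. Apobec3 has its element at -140 to -131 on the opposite strand, and Bst2 has 2 overlapping elements between -130 and -115. The gamma-activated site TTCNNNGAA was found in the windows of Bst2, Samhd1 and Ifitm3 (8.3% of all windows) and the NF-kB consensus in that of Bst2 (4.51%). Among genes past the rule with a window, Rsad2, Bst2, Ifitm3 and Apobec3 thus held GAAANNGAAA. Cmpk2, at rank 5 of the changes, and Samhd1 did not. Of the genes within the rule, Ifitm2 held it and Ifitm1 did not. A missing match says only that these letters are not in the window.

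**Figure D4:**
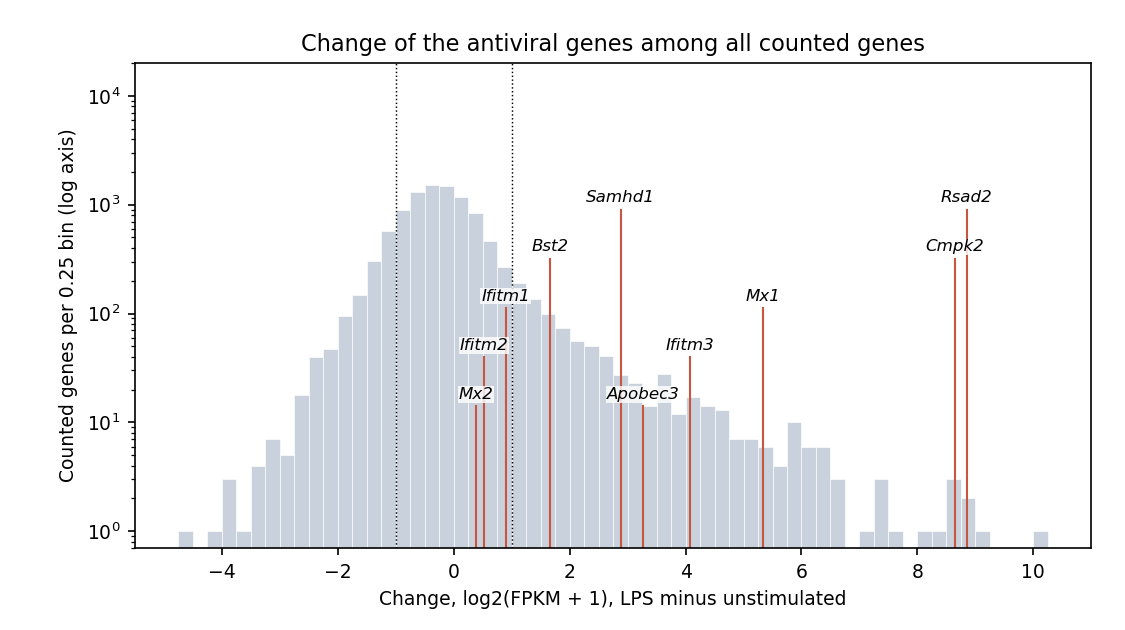
Histogram of the change in log2(FPKM + 1), LPS minus unstimulated, over the 10033 counted genes in bins of 0.25 with a log count axis; dotted lines mark the size rule at -1 and 1, and red lines mark the 10 antiviral genes at heights chosen for legibility. Rsad2 (8.85) and Cmpk2 (8.64) lie at the far right, and Mx2 (0.38, matched row, not among the counted genes), Ifitm2 (0.52) and Ifitm1 (0.89) lie inside the rule.

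The order of the 10 genes by level, taken on matched rows only, differed between the libraries. Unstimulated, it ran Ifitm2, Bst2, Samhd1, Ifitm3, Apobec3, Rsad2, Cmpk2, Ifitm1, Mx1, Mx2, and the intervals of Cmpk2 and Ifitm1 overlapped, as did those of Ifitm1 and Mx1. After LPS it ran Rsad2, Ifitm2, Cmpk2, Bst2, Samhd1, Ifitm3, Mx1, Apobec3, Ifitm1, Mx2, and only Mx1 (46.6) and Apobec3 (46.5) had overlapping intervals among neighbours in that order. With the unmatched rows added, the Mx1 locus stood at 76.3 (73.4 to 79.3) FPKM after LPS and did not overlap Apobec3. The Mx2 locus then stood at 27.6 (26.1 to 29.1), above Ifitm1. On matched rows, the summed FPKM of the group went from 841.5 to 3603, from 0.152% to 0.55% of the FPKM of all genes. Ifitm2 held 83.5% of that sum unstimulated and 27.9% after LPS, and Rsad2 with Cmpk2 held 0.273% and 51.8%. The number of genes over 100 FPKM in the LPS library was 6.

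Genes that make and relay interferon were described from a list of 19, of which 18 were measured and 17 counted. By the size rule 10 were higher and 2 lower, beside 8.54% higher and 12.4% lower over all counted genes. The median change was 1.54 over the 17 counted and 1.48 over the 18 measured, against -0.24 over all counted genes. Among ligands, the interferon beta gene Ifnb1 was listed at 0 in the unstimulated library and at 16.2 (13.9 to 18.4) FPKM in the LPS library, and Ifna4, an interferon alpha gene, was listed at 0 in both. On the sensing side the receptor gene Tlr4 (2.92 to 0.488) and its adaptor gene Ticam2 (3.69 to 0.949) fell, both short of the rule when the pseudocount was 5 (-0.53 and -0.55) and Ticam2 also after quantile normalisation (-0.93), and the kinase gene Ikbke rose from 9.37 to 149. On the receiving side the receptor gene Ifnar2 rose from 37.8 to 103 and the kinase gene Tyk2 from 3.57 to 12.3.

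Among transcription factors, Stat2 rose from 1.78 to 23.0 FPKM, Irf9 from 3.11 to 31.5, Irf7, the amplifier of interferon production, from 4.68 to 338, and Irf1 from 6.72 to 252. The feedback genes rose as well, Usp18 from 3.78 to 340 and Socs1 from 0.269 to 6.70. The 5 within the rule were Ticam1, Tbk1, Irf3, Ifnar1 and Jak1.

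Of 19 listed family relatives of the antiviral genes, 18 were measured and 13 counted. Of the 13, 1 was higher and 2 were lower, close to the shares of 8.54% and 12.4% over all counted genes. The median change was -0.39 over the 13 counted and -0.12 over the 18 measured, against -0.24 over all counted genes. Apobec1, an RNA-editing deaminase, fell from 75.5 (72.8 to 78.2) to 31.7 (30.1 to 33.4), whereas Apobec3 rose. Apobec2 and Apobec4 were listed at 0 in both libraries. Of the radical SAM enzymes, the family of viperin, the molybdenum cofactor gene Mocs1 rose from 1.82 to 6.08, while Rsad1, Lias, Cdk5rap1, Cdkal1, Elp3 and Tyw1 were within the rule. The dynamin genes Dnm1, Dnm1l and Dnm2, related to Mx, were within it, and Dnm3 (0 and 0.00988), Ifitm5 and Ifitm10 (0.0301 and 0.0287) were under 1 FPKM. The call of Mocs1 was lost with a pseudocount of 5 (0.70).

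Genes beside the antiviral loci were also followed. Within 100 kb lay 42 other measured symbols, of which 24 were counted, 1 was higher (Pdgfb, a growth factor gene 3′ of Apobec3, 2.73 to 23.2 FPKM) and 1 lower (Cbx6, a Polycomb gene on the other side of Apobec3, 2.59 to 0.567). Over all counted genes 8.54% were higher and 12.4% lower. Pdgfb and Cbx6 were named after their values were seen, and the call of Cbx6 was lost when the pseudocount was 5 (-0.45) or values were quantile normalised (-0.89). Of the nearest symbols to Rsad2 and Cmpk2, Rnf144a was listed at 0 and 0.00887, and Sox11, which lies 854 kb from Cmpk2 and so outside that distance, at 0 in both libraries. Around the Mx genes, Bace2 was at 0 in both, Fam3b at 0 and 0.134, and Tmprss2 at 0 and 0.0293. Beside Bst2, Plvap was at 0 and 0.0478 and Mvb12a at 141 (135 to 146) and 192 (185 to 198). Beside Samhd1, Tldc2 was at 0 in both and Rbl1 at 11.97 (10.99 to 12.9) and 5.64 (4.97 to 6.31), and on the far side of Apobec3 Cbx7 was at 2.52 and 1.37, neither of the last pair past the rule.

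Across the 2 libraries, the counted genes whose pair of levels lay closest to each antiviral gene, by Euclidean distance in log2(FPKM + 1), were as follows. Rsad2 was closest to Acod1 (0.936 and 1165 FPKM, distance 0.37), Cmpk2 to Ifit1 (0.729 and 808, distance 0.18) and Mx1 to Gm12250 (0.128 and 45.8, distance 0.073). Ifitm3 was closest to Tlr2 (6.75 and 128, distance 0.093), Samhd1 to C130026I21Rik (25.5 and 175, distance 0.15) and Apobec3 to Slc7a2 (3.43 and 47.0, distance 0.15). Bst2 was closest to Pttg1, Ifitm2 to Akr1a1, Ifitm1 to Spata13 and the matched row of Mx2 to Serping1. With 2 points per gene such a likeness describes only these levels.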

How the data were processed

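Per the labels' protocols, total RNA of BV2 cells was extracted with Trizol, made into libraries with a directional kit and sequenced as 76-base reads. Per the submitters' processing notes, the authors used Cufflinks and the mm9 build; its version, the aligner and the strand setting are not stated in the labels or headers. The deposited values are FPKM with a lower and an upper bound, 1 row per RefSeq transcript and locus. Symbols came from a RefSeq table (assembly GRCm38.p6) that served for naming alone and matched 97.6% of 28246 rows; an unmatched row stood as a gene of its own. The 391 rows not of status OK in both libraries and small RNA genes were left out, rows of a symbol were summed, and half-widths were combined in quadrature (Python 3.11.15, pandas 2.3.3, numpy 2.4.6). Deposited starts were read as 0-based. The change is log2(FPKM + 1), LPS minus unstimulated, for genes at 1 FPKM or more in either library. Intervals of ratios combine both deposited 95% intervals and cover counting and assignment inside a library only. Fragments are (2 × FPKM / half-width) squared, a number implied by the interval. Among rows with 0.5 to 50 of them, 67.5% and 68.9% came within 0.05 of a whole number. Where rows share a locus the interval also covers assignment, so the number there is not a plain count.

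The antiviral genes and the lists were chosen with earlier results of these data known. All 10 genes are named with every row; of the lists, genes past the rule and those under 1 FPKM, except a few that enter the counts and are not reported here by name; of the neighbours, the nearest symbol on each side. The alternatives were pseudocounts of 0.1 and 5, TPM, median scaling, quantile normalisation, a filter at 5 FPKM, no filter, the highest row of each symbol, all rows whatever their status, and a size rule of 2. RefSeq promoter windows are of GRCm38.p6 and were not set against mm9 coordinates.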

Additional observations from a re-analysis of the deposited data

Results flagged for a closer look

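Signal was present in rows that the match of accessions to symbols leaves out. The row NM_010846 at the Mx1 locus stood at an FPKM of 29.8 in the LPS library and the row NM_013606 at the Mx2 locus at 27.3, each above its level in the unstimulated library (1.31e-05 and 0.0366). The Mx2 result rests on whether the second of these rows is read as Mx2.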

How the results depend on the processing

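The number of antiviral genes called higher was 6 to 8 under the 10 other settings listed under processing and 8 with the unmatched Mx rows added, and 0 were called lower under any of these 10. The neighbours called higher stayed at 1. The cause of each shift was not tested. No paired analysis was possible because each group has 1 library, and for the same reason there was no leave-one-out value.

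With a pseudocount of 0.1 the changes were 9.49 for Rsad2, 9.65 for Cmpk2, 7.37 for Mx1, 1.97 for the matched row of Mx2 (still under the filter), 1.51 for Ifitm1 and 3.54 for Apobec3, and 2061 genes were called lower in place of 1248. With a pseudocount of 5 they were 7.48 for Rsad2, 6.96 for Cmpk2, 3.32 for Mx1, 0.09 for Mx2, 2.70 for Samhd1, 3.50 for Ifitm3 and 2.53 for Apobec3, the median of the 10 was 2.62 and 354 genes were called lower; interferon production and signalling then had 0 lower, deoxynucleotide supply 1 higher, and the family relatives 0 higher and 1 lower. With TPM in place of FPKM, a shift of -0.24 in the median of all counted genes, the median of the 10 was 2.91, with 5.76 for Mx1, 1.41 for Bst2, 2.66 for Samhd1 and 0.27 for Ifitm2; 2351 genes were called lower, 4 of them family relatives. Quantile normalisation, a shift of 0.11 in that median, gave 1.38 for Bst2, 2.73 for Samhd1, 1.19 for Ifitm1 and 0.10 for Ifitm2, and 1 gene lower in the interferon list and 1 among the relatives. Higher genes made up 40.7% of all called genes on the deposited scale, 24.6% after TPM, 53.3% after quantile normalisation, and 61.9% with a pseudocount of 5.

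Median scaling gave 0.60 for Ifitm2, and the highest row of each symbol 3.02 for Samhd1. With a filter at 5 FPKM 0 genes of the interferon list and 1 of the relatives were lower. Under a size rule of 2, Bst2 (1.65) was no longer past it, 358 genes were higher and 127 lower, the interferon list had 0 lower, deoxynucleotide supply 1 higher and 1 lower, and the relatives 0 higher and 0 lower. With the unmatched rows added, the Mx1 change was 6.03, the Mx2 change 4.78 and the median of the 10 3.68. Depth limits Ifitm1, with 7 fragments in the unstimulated library, and the Mx genes there.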
